A study of Homo sapiens with 12 samples.

Results

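The 35 genes described here encode the proteins that carry glucose into the cell, the enzymes of glycolysis, the step between pyruvate and lactate, the kinases and catalytic subunit of pyruvate dehydrogenase, 3 enzymes of the pentose phosphate pathway, and the glucose-sensing arrestins TXNIP and ARRDC4. They were picked out by gene symbol, from a list drawn up with earlier results of these data known, and all 35 were found among the 20531 genes listed for each library. Polyadenylated RNA of SKBR-3, an established HER2-amplified breast carcinoma line, was sequenced in 12 libraries, 3 in each of 4 groups. Cells of the first group (siNT DMSO) received a non-targeting (NT) siRNA pool for 48 h and then the solvent DMSO for 24 h, and those of the second (siNT lapatinib) received the same pool and then 300 nM lapatinib, an inhibitor of the EGFR and HER2 kinases, for 24 h. The other 2 groups (siFOXA1 DMSO and siFOXA1 lapatinib) received siRNA against FOXA1, a forkhead pioneer factor of luminal epithelium, for 48 h before the same treatments. The whole series is of 1 cell line grown in serum-containing medium, and neither the glucose supply nor lactate, glucose uptake or enzyme activity was measured in these libraries. The questions were how the pathway responded to HER2 inhibition, and whether that response differed once FOXA1 was depleted.

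Glycolysis splits glucose into pyruvate. Transporters of the SLC2A family bring glucose in, hexokinase traps it as a phosphate, phosphofructokinase commits it, and the lower enzymes from GAPDH to pyruvate kinase harvest ATP and NADH. Lactate dehydrogenase turns pyruvate into lactate, which leaves through carriers of the SLC16A family, whereas pyruvate dehydrogenase sends it into the mitochondrion unless its kinases switch it off. The pentose phosphate pathway branches off glucose phosphate to supply NADPH and ribose. TXNIP and ARRDC4 are arrestins whose transcription is known to be driven by glucose-sensing factors and which restrain glucose uptake. In HER2-driven breast cancer cells, growth factor signalling through PI3K is known to sustain high glucose use.

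The libraries held 25749578 to 32271850 expected counts. FOXA1 itself was 2.63 lower on the log2 scale with FOXA1 siRNA in DMSO (SE 0.10, adjusted p = 4.55e-06) and 2.69 lower in lapatinib (SE 0.12, adjusted p = 6.11e-06), and the siRNA groups did not overlap. The line's defining transcripts were abundant, with ERBB2 at a mean of 3073 TPM in siNT DMSO, and those of leukocytes (PTPRC), endothelium (PECAM1) and fibroblasts (COL3A1) were near 0, while the fibroblast-associated COL1A1 stood at a mean of 5.2 TPM in siNT DMSO and 3.21 in siNT lapatinib. The basal keratin KRT5 was higher with FOXA1 siRNA (log2 fold change 2.62 in DMSO and 3.45 in lapatinib) but reached a mean of only 1.29 TPM, and its part in the results below was not tested. In bulk RNA, fewer cells of a kind and less RNA per cell cannot be told apart. Values below are expected counts scaled by library size (normalized counts) where a gene is compared between groups, and TPM, which is per length, where genes are compared with each other.

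In siNT DMSO, the mean TPM of the 35 members ran from 12959 ± 1109 (SD, n = 3) for GAPDH to 0.293 ± 0.0416 for the neuronal enolase ENO2. GAPDH was followed by the aldolase ALDOA at 3613 ± 81.3, ENO1 at 2352 ± 41.2, LDHA at 1637 ± 83.0 and PKM2 at 1226 ± 35.4 TPM, and the ranges of these 5 genes did not overlap. TPI1 at 835 ± 42.3 and TKT at 825 ± 38.2 TPM overlapped, as did the glucose transporter SLC2A1 at 266 ± 15.2 and PGAM1 at 295 ± 23.5. TXNIP stood at 44.9 ± 7.19, ARRDC4 at 4.78 ± 0.718, SLC16A1 at 2.02 ± 0.135 and PDK4 at 0.86 ± 0.694 TPM. The low end of the pathway was thus made of regulators and alternative isoenzymes. The members together took 2.83% to 3.10% of the summed TPM in siNT DMSO, 2.06% to 2.22% in siNT lapatinib, 2.84% to 2.97% in siFOXA1 DMSO and 2.32% to 2.43% in siFOXA1 lapatinib. With either siRNA, the lapatinib libraries did not overlap the DMSO libraries in this share.

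**Figure D1:**
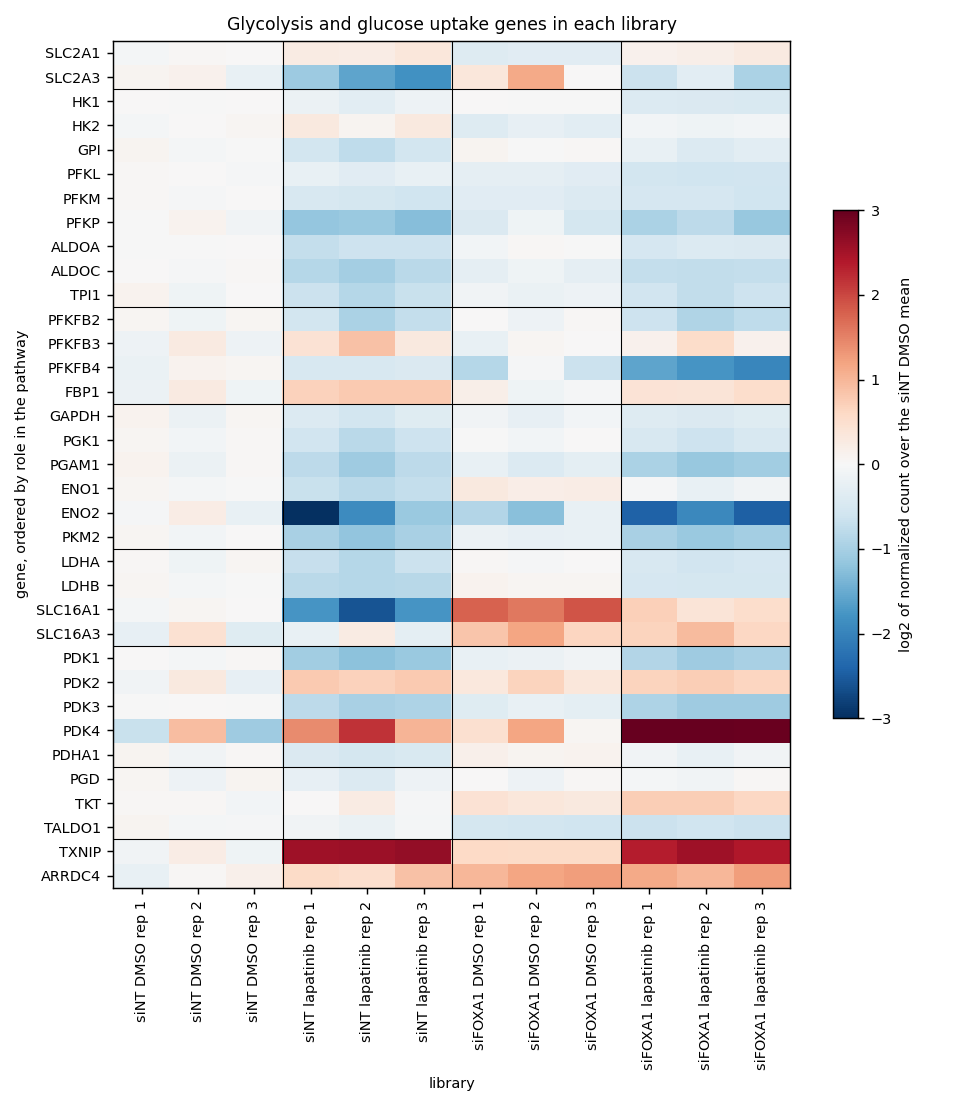
Each cell is the log2 ratio of a member's normalized count in 1 library to its mean in the 3 siNT DMSO libraries; rows are the 35 genes in pathway order with lines between roles, columns the 12 libraries, and the colour scale ends at 3 in either direction. Most rows are blue in both sets of lapatinib libraries, while TXNIP and PDK4 are red, and SLC16A1 is red in both siFOXA1 groups.

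With NT siRNA, lapatinib lowered most of the pathway. Of the 35 members, 24 fell and 8 rose (edgeR quasi-likelihood test, Benjamini-Hochberg adjusted p below 0.05), against 29.2% and 30.5% of all genes tested that did so. The median log2 fold change of the members was -0.52, beside 0.03 over all genes tested. SLC16A3, TALDO1 and TKT did not pass. When the log2 fold change also had to reach 1 in either direction, 6 members were lower (ENO2, PDK1, PFKP, PKM2, SLC16A1 and SLC2A3) and 2 higher (PDK4 and TXNIP), against 7.12% and 6.64% of all genes. With FOXA1 siRNA, 23 members fell and 7 rose with lapatinib, beside 29.1% and 29% of all genes, and the median was -0.35 beside 0.01. Those whose log2 fold change also reached 1 were ENO2, PFKFB4, SLC16A1 and SLC2A3 among the lower and PDK4 and TXNIP among the higher, against 5.12% and 4.93% of all genes. With an adjusted p below 0.01, 21 members fell and 5 rose with lapatinib with either siRNA, beside 22.5% and 22.8% of all genes with NT siRNA and 22.3% and 21.5% with FOXA1 siRNA. The 23 that fell with FOXA1 siRNA all fell with NT siRNA too, and 6 members rose with either siRNA: FBP1, HK2, PDK4, PFKFB3, SLC2A1 and TXNIP. The share of all genes called alike with both siRNAs is not given here, so this overlap cannot be set apart from that of other genes. The DMSO and lapatinib libraries of the 2 comparisons are separate samples. Reads of GAPDH, ENO1, TPI1, PGAM1, PGK1, PKM2, LDHA, LDHB and ALDOA can match processed pseudogenes, and those of SLC2A3 its close copy SLC2A14, so their counts depend on how RSEM shared such reads.

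**Figure D2:**
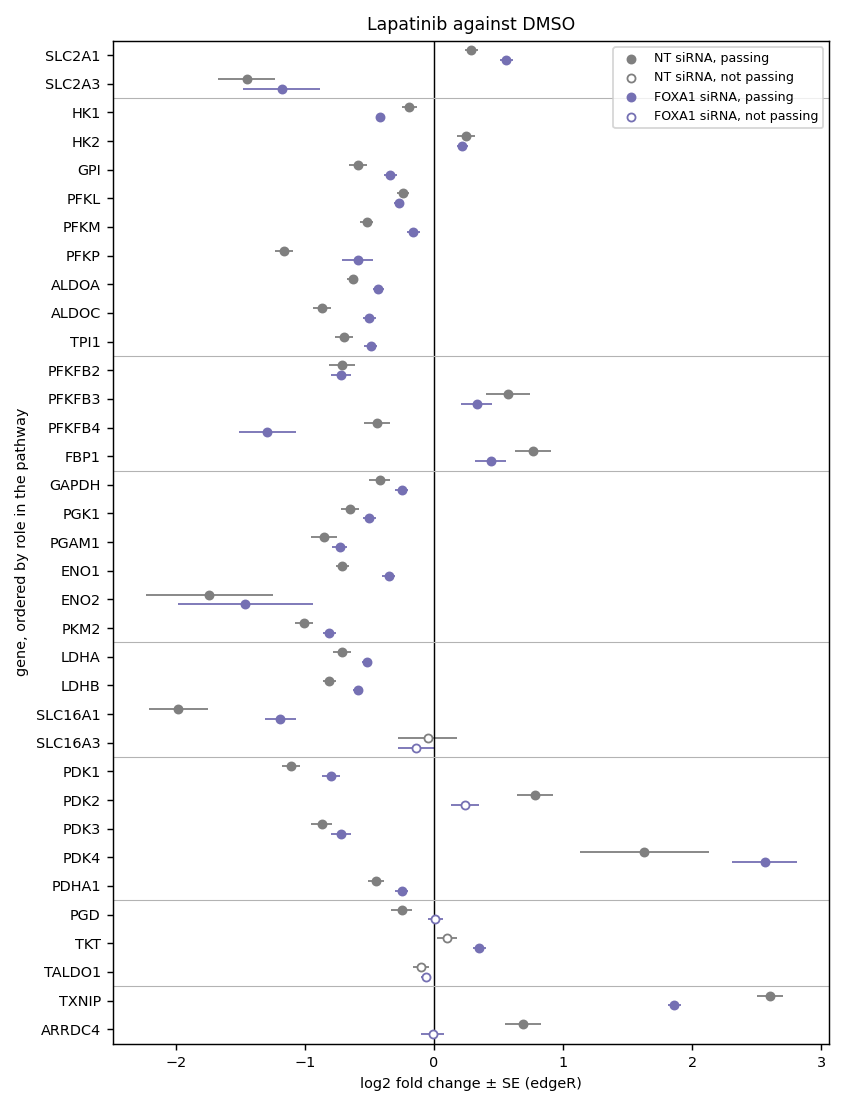
The horizontal axis is the log2 fold change of lapatinib against DMSO (points) with its standard error (bars), for the 35 members with NT siRNA (grey) and FOXA1 siRNA (purple); filled points passed an adjusted p below 0.05. The points of most glycolytic enzymes lie left of 0 with either siRNA, and TXNIP and PDK4 lie farthest to the right.

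The pair of glucose transporters among the members, SLC2A1 and SLC2A3, changed in opposite directions with lapatinib. SLC2A1 (GLUT1), the main glucose carrier of epithelial tumour cells, took at least 97.8% of the summed TPM of the pair in every library. Its normalized counts were 15049, 16056 and 15732 in siNT DMSO, 18522, 18226 and 19663 in siNT lapatinib, 11915, 12337 and 12328 in siFOXA1 DMSO, and 17174, 17580 and 18890 in siFOXA1 lapatinib. The lapatinib libraries were above the DMSO libraries with either siRNA. SLC2A1 rose 1.22-fold with NT siRNA (log2 0.29, SE 0.05, adjusted p = 0.00138) and 1.48-fold with FOXA1 siRNA (log2 0.56, SE 0.05, adjusted p = 2.52e-05). FOXA1 siRNA lowered it in DMSO (log2 -0.34, SE 0.04, adjusted p = 0.000465), while in lapatinib the groups overlapped (log2 -0.08, SE 0.05, adjusted p = 0.243), where the fit with the replicate number as a block called it lower (adjusted p = 0.0344). SLC2A3 (GLUT3), a high-affinity carrier typical of neurons, had a mean of only 2.14 TPM in siNT DMSO. Some SLC2A genes outside the members were higher there, such as SLC2A8 (17.8 TPM), and others lower, such as SLC2A5 (0.383 TPM). SLC2A3 was at 142.8, 145.8 and 114.1 normalized counts in siNT DMSO and at 63.0, 44.7 and 38.0 in siNT lapatinib. It fell with lapatinib with NT siRNA (log2 -1.45, SE 0.22, adjusted p = 0.000567) and with FOXA1 siRNA (log2 -1.18, SE 0.30, adjusted p = 0.0096). In lapatinib it was higher with FOXA1 siRNA (log2 0.86, SE 0.25, adjusted p = 0.0221). This call did not hold in 4 of the 6 fits that each left out 1 library (siFOXA1 lapatinib replicate 1 or 2, siNT lapatinib replicate 2 or 3, with adjusted p = 0.0501 to 0.0762). It passed with the replicate block (adjusted p = 0.00184).

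TXNIP had the largest rise with NT siRNA among the 35 members. Its normalized counts were 1904, 2375 and 1862 in siNT DMSO and 11952, 12159 and 12669 in siNT lapatinib. In siFOXA1 DMSO they were 3099, 3043 and 3024, and in siFOXA1 lapatinib 10415, 11854 and 10827. Every lapatinib library was above every DMSO library. The rise was 6.08-fold with NT siRNA (log2 2.60, SE 0.10, adjusted p = 1.57e-06) and 3.63-fold with FOXA1 siRNA (log2 1.86, SE 0.05, adjusted p = 1.49e-06), and the difference between these responses passed its own test (interaction log2 -0.73, SE 0.11, adjusted p = 0.00326). FOXA1 siRNA alone raised TXNIP in DMSO (log2 0.59, SE 0.09, adjusted p = 0.00171). In lapatinib it was slightly lower with FOXA1 siRNA (log2 -0.16, SE 0.06, adjusted p = 0.0486). This call held in 1 of the 6 fits leaving out a library, that without siFOXA1 lapatinib replicate 2. It did not hold in a model of all 12 samples (adjusted p = 0.129), with upper-quartile scaling (adjusted p = 0.0694) or with no filter on low counts (adjusted p = 0.0506). It passed with the replicate block (log2 -0.16, adjusted p = 0.00404).

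ARRDC4, another glucose-responsive arrestin, was less abundant and rose less. It stood at 250.2, 300.5 and 323.1 normalized counts in siNT DMSO, 433.9, 413.5 and 539.6 in siNT lapatinib, 582.6, 663.4 and 692.0 in siFOXA1 DMSO, and 639.6, 577.6 and 693.0 in siFOXA1 lapatinib. The 2 siFOXA1 groups overlapped, and both lay above every siNT library. ARRDC4 rose with lapatinib with NT siRNA (log2 0.69, SE 0.14, adjusted p = 0.00274), while with FOXA1 siRNA the log2 fold change was -0.01 (SE 0.09, adjusted p = 0.911). FOXA1 siRNA raised it 2.24-fold in DMSO (log2 1.16, SE 0.12, adjusted p = 0.000184) and by less in lapatinib (log2 0.45, SE 0.12, adjusted p = 0.0143). The interaction was -0.69 on the log2 scale (SE 0.17, adjusted p = 0.0336), and it passed in 5 of 12 fits that each left out 1 library, with adjusted p up to 0.0889. It passed with the replicate block (adjusted p = 0.00161).

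The promoters of these arrestins are shown because TXNIP and ARRDC4 were the members with a negative interaction past the threshold. Each runs from 250 bases before to 50 after the RefSeq start site (GRCh38.p14), 5′ to 3′ on the gene's strand. In the first, TXNIP at chr1:145996530-145996829 on the minus strand, capitals mark the reverse complement of the forkhead motif TGTTTAC, and in the second, ARRDC4 at chr15:97960453-97960752 on the plus strand, they mark the E-box CACGTG, the sequence bound by MYC, MLX and related factors.
TXNIP: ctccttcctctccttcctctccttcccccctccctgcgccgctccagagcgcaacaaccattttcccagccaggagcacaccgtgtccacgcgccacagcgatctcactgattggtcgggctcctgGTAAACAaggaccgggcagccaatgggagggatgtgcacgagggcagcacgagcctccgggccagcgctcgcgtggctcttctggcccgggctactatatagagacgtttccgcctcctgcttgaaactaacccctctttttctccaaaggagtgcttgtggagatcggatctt
ARRDC4: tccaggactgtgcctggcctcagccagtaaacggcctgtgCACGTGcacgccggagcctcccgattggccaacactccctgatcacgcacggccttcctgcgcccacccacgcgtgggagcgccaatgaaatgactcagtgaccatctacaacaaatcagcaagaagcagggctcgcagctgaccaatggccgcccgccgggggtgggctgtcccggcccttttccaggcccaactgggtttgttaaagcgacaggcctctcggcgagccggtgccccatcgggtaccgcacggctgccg
The forkhead match begins 124 bases before the TXNIP start site and the E-box 210 bases before that of ARRDC4. RefSeq promoters were matched for 32 members, with 61 start sites, and not for PFKFB2, SLC16A1 and SLC2A3. Searched on both strands, TGTTTAC was in 1 of the 61 (1.64%), the TXNIP promoter above, against 3.42% of 35116 promoters of the same length, and TGTTGAC was in 0 against 2.32%. CACGTG was in 8 of the 61 (13.1%) against 7.26%, in ALDOA, ALDOC, ARRDC4, GAPDH, HK2, LDHA, PDK2 and PFKFB3. ACGTG, the core bound by hypoxia-inducible factors, which lies within every CACGTG, was in 23 (37.7%) against 21.4%. Another RefSeq window of TXNIP, chr1:145995695-145995994 on the minus strand, is not printed. It held an ACGTG match and neither forkhead motif. An exact pair of CACGTG boxes 5 bases apart was in 0 of the 61 and in 2 of the 35116. A pattern this rare cannot set the members apart from other promoters, and pairs with mismatched letters were not searched for. The printed TXNIP window holds such a pair, cacgagggcagcacgag, which is not marked. These matches describe the letters in the windows and no binding was measured here.

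**Figure D3:**
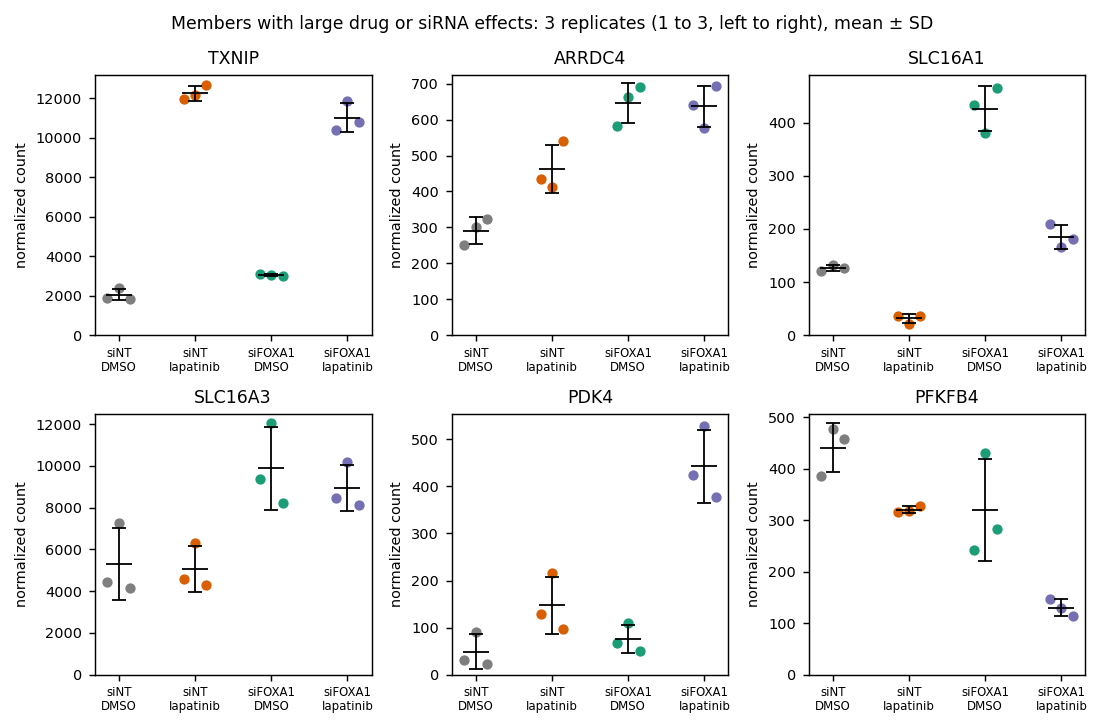
Normalized counts of 6 members in the 3 libraries of each group (points, replicates 1 to 3 from left to right), with the mean and SD (black). TXNIP is high in both lapatinib groups, ARRDC4 and SLC16A3 are high in both siFOXA1 groups, SLC16A1 is highest in siFOXA1 DMSO, PDK4 is highest in siFOXA1 lapatinib, and PFKFB4 is lowest there.

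In upper glycolysis, 8 of 9 enzymes fell with lapatinib with either siRNA, and HK2 rose. HK2, the inducible hexokinase of tumours, was at 9052 to 9836 normalized counts in siNT DMSO and 9986 to 11677 in siNT lapatinib (log2 0.25, SE 0.07, adjusted p = 0.0159). The same rise with FOXA1 siRNA was 0.22 on the log2 scale (SE 0.04, adjusted p = 0.00246). Its rise with NT siRNA did not pass without siNT DMSO replicate 1 or siNT lapatinib replicate 1 or 3 (adjusted p = 0.0592 to 0.0637). HK1, the constitutive hexokinase, fell (log2 -0.19, SE 0.06, adjusted p = 0.0151 with NT siRNA, and -0.42, SE 0.03, adjusted p = 2.8e-05 with FOXA1 siRNA). The isomerase GPI, the aldolases ALDOA and ALDOC and the isomerase TPI1 fell with NT siRNA by log2 values from -0.59 to -0.87, and with FOXA1 siRNA by -0.34 to -0.50. ALDOA, the most abundant of them, was at 85532, 84624 and 86919 normalized counts in siNT DMSO and at 52281, 55679 and 55583 in siNT lapatinib. It was at 81359, 88503 and 84473 in siFOXA1 DMSO and at 60066, 64623 and 63205 in siFOXA1 lapatinib, so that the lapatinib groups were below the DMSO groups and did not overlap each other.

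The 3 phosphofructokinases, which catalyse the committed step, fell by unequal amounts. The platelet form PFKP was at 5818, 6336 and 5485 normalized counts in siNT DMSO and at 2632, 2738 and 2411 in siNT lapatinib. In siFOXA1 DMSO it was at 4372, 5385 and 4096, and in siFOXA1 lapatinib at 3064, 3422 and 2668. It fell 2.23-fold with NT siRNA (log2 -1.16, SE 0.07, adjusted p = 7.75e-06) and 1.504-fold with FOXA1 siRNA (log2 -0.59, SE 0.12, adjusted p = 0.00268). The muscle form PFKM fell with NT siRNA (log2 -0.52, SE 0.05, adjusted p = 5.41e-05) and less with FOXA1 siRNA (log2 -0.16, SE 0.05, adjusted p = 0.0151), the latter not passing without siFOXA1 DMSO replicate 1 or siFOXA1 lapatinib replicate 3 (adjusted p = 0.0554 and 0.0814). The liver form PFKL fell by log2 values of -0.24 and -0.27. FOXA1 siRNA lowered PFKL in DMSO and in lapatinib (log2 -0.28 and -0.32) and HK2 likewise (log2 -0.30 and -0.33), while it lowered PFKM (log2 -0.35, adjusted p = 0.000368) and PFKP (log2 -0.34, adjusted p = 0.0335) in DMSO. The DMSO call of PFKP held in 2 of 6 fits that left out a library, those without siFOXA1 DMSO replicate 2 and without siNT DMSO replicate 3. It passed with the replicate block (adjusted p = 3.68e-05).

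The PFKFB enzymes make and remove the allosteric activator of phosphofructokinase, and FBP1 runs the same step backwards in gluconeogenesis. With lapatinib, PFKFB3, the strongly kinase-biased form, and FBP1 rose, and PFKFB2 and PFKFB4 fell. FBP1 was at 131.0, 176.5 and 134.2 normalized counts in siNT DMSO and at 236.6, 253.5 and 254.4 in siNT lapatinib (log2 0.77, SE 0.14, adjusted p = 0.00181), and rose with FOXA1 siRNA by 0.44 (SE 0.12, adjusted p = 0.0123). PFKFB3 rose by 0.57 (SE 0.17, adjusted p = 0.0190) with NT siRNA and by 0.33 (SE 0.12, adjusted p = 0.0448) with FOXA1 siRNA. These calls of PFKFB3 were lost without siNT DMSO replicate 1 or 3 in the first case and without siFOXA1 DMSO replicate 1 or 3 or siFOXA1 lapatinib replicate 2 in the second (adjusted p = 0.0674 to 0.144). The second was also lost in the model of all 12 samples (adjusted p = 0.116) and with total-count scaling (adjusted p = 0.0770). Both calls of PFKFB3 passed with the replicate block (adjusted p = 5.19e-05 with NT siRNA and 0.002 with FOXA1 siRNA). PFKFB2, a form activated by AKT, fell by -0.71 (SE 0.10) and -0.72 (SE 0.08) on the log2 scale. PFKFB4 was at 386.2, 476.0 and 458.2 normalized counts in siNT DMSO, 315.1, 317.1 and 328.3 in siNT lapatinib, 242.8, 430.8 and 282.7 in siFOXA1 DMSO, and 146.7, 129.7 and 113.6 in siFOXA1 lapatinib. The last group lay below all others. The fall with lapatinib was -0.44 (SE 0.10, adjusted p = 0.00652) with NT siRNA and -1.29 (SE 0.22, adjusted p = 0.00121) with FOXA1 siRNA, and the difference missed the threshold (interaction -0.84, SE 0.26, adjusted p = 0.0717) but passed with the replicate block (adjusted p = 0.0197) and DESeq2 (adjusted p = 0.0234). FOXA1 siRNA lowered PFKFB4 2.47-fold in lapatinib (log2 -1.31, SE 0.12, adjusted p = 7.28e-05). In DMSO the groups overlapped (log2 -0.45, SE 0.20, adjusted p = 0.112), and the block called it lower (adjusted p = 0.00318).

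All 6 enzymes of lower glycolysis fell with lapatinib with either siRNA. GAPDH, the most abundant member and a common reference gene, was at 230910, 189505 and 224152 normalized counts in siNT DMSO and at 160634, 146291 and 168003 in siNT lapatinib. It fell by -0.42 on the log2 scale (SE 0.08, adjusted p = 0.00194), and with FOXA1 siRNA by -0.25 (SE 0.05, adjusted p = 0.00239). PGK1, which makes the first ATP, fell by -0.65 and -0.50, and PGAM1, a mutase, by -0.85 and -0.73. PKM2, the deposited symbol of the gene PKM that encodes both pyruvate kinase M isoforms, was at 43356, 38932 and 41673 normalized counts in siNT DMSO and at 21190, 18155 and 21074 in siNT lapatinib. Its fall was 2.02-fold with NT siRNA (log2 -1.01, SE 0.07, adjusted p = 1.09e-05) and 1.76-fold with FOXA1 siRNA (log2 -0.81, SE 0.05, adjusted p = 6.49e-06). ENO2 fell by -1.74 (SE 0.49) and -1.46 (SE 0.52), but it never exceeded 12.9 normalized counts in a library, DESeq2 called neither fall (adjusted p = 0.061 and 0.18), and the second held in 1 of 5 fits that left out a library, that without siFOXA1 DMSO replicate 2.

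ENO1, the main enolase, was the lower glycolytic enzyme that FOXA1 siRNA raised. Its normalized counts were 69635, 64523 and 65887 in siNT DMSO, 41689, 37868 and 40518 in siNT lapatinib, 81174, 76379 and 78171 in siFOXA1 DMSO, and 64702, 57167 and 61510 in siFOXA1 lapatinib. The 4 groups were separate except for siNT DMSO and siFOXA1 lapatinib, which overlapped. ENO1 was higher with FOXA1 siRNA in DMSO (log2 0.25, SE 0.04, adjusted p = 0.00135) and more so in lapatinib (log2 0.60, SE 0.06, adjusted p = 0.000122). Lapatinib lowered it 1.64-fold with NT siRNA (log2 -0.71, SE 0.05) and 1.28-fold with FOXA1 siRNA (log2 -0.35, SE 0.05), and this difference passed (interaction 0.37, SE 0.07, adjusted p = 0.0109). PKM2 and PGAM1 were lower with FOXA1 siRNA in DMSO (log2 -0.20, adjusted p = 0.00667, and -0.29, adjusted p = 0.0166), and in lapatinib gave -0.00 (adjusted p = 0.967) and -0.17 (adjusted p = 0.143). The calls of PGAM1 in DMSO did not hold without siNT DMSO replicate 1 or 3 (adjusted p = 0.0593 and 0.0572).

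Lactate dehydrogenase fell and its carriers diverged. LDHA, the form that favours lactate, was at 57829, 51560 and 58588 normalized counts in siNT DMSO and at 34566, 30851 and 35803 in siNT lapatinib, a fall of -0.71 (SE 0.07, adjusted p = 5.51e-05). LDHB, the form that favours pyruvate, fell by -0.81 (SE 0.05, adjusted p = 5.21e-06). With FOXA1 siRNA these falls were -0.52 and -0.59, and LDHB was 0.30 higher with FOXA1 siRNA in lapatinib (SE 0.04, adjusted p = 0.000638). SLC16A1 (MCT1), a carrier that moves lactate in either direction, was at 120.2, 131.9 and 126.5 normalized counts in siNT DMSO and at 36.9, 20.9 and 36.9 in siNT lapatinib. With FOXA1 siRNA it was at 432.7, 380.6 and 464.5 in DMSO and at 208.7, 165.3 and 181.2 in lapatinib. No pair of these 4 groups overlapped. Lapatinib lowered it 3.95-fold with NT siRNA (log2 -1.98, SE 0.23, adjusted p = 0.000125) and 2.29-fold with FOXA1 siRNA (log2 -1.19, SE 0.12, adjusted p = 7.68e-05). FOXA1 siRNA raised it 3.40-fold in DMSO (log2 1.77, SE 0.11, adjusted p = 2.09e-05) and 5.85-fold in lapatinib (log2 2.55, SE 0.22, adjusted p = 6.37e-05). The interaction was 0.80 (SE 0.24, adjusted p = 0.0644), and passed with the block (adjusted p = 0.0153) and DESeq2 (adjusted p = 0.0224).

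SLC16A3 (MCT4), the carrier that exports lactate from glycolytic cells, was the far more abundant of the pair, with 97.2% to 99.8% of their summed TPM. It was at 4447, 7273 and 4141 normalized counts in siNT DMSO, 4559, 6303 and 4314 in siNT lapatinib, 9387, 12075 and 8213 in siFOXA1 DMSO, and 8459, 10181 and 8136 in siFOXA1 lapatinib. Replicate 2 was the highest in each group, and every siFOXA1 library was above every siNT library. FOXA1 siRNA raised it 1.89-fold in DMSO (log2 0.92, SE 0.23, adjusted p = 0.0134) and 1.76-fold in lapatinib (log2 0.81, SE 0.14, adjusted p = 0.00247), the first of which missed the threshold without siNT DMSO replicate 1 (adjusted p = 0.0514). Lapatinib gave -0.05 (SE 0.23, adjusted p = 0.876) and -0.14 (SE 0.14, adjusted p = 0.411), and the latter passed with the replicate block (log2 -0.13, adjusted p = 0.0217), which called 34.1% of all genes lower and 34.5% higher.

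The kinases that switch off pyruvate dehydrogenase changed in opposite directions. PDK4, induced in fasting and by FOXO factors, was at 30.5, 91.2 and 23.0 normalized counts in siNT DMSO, 128.4, 215.7 and 97.5 in siNT lapatinib, 67.0, 108.9 and 50.5 in siFOXA1 DMSO, and 424.7, 528.6 and 376.7 in siFOXA1 lapatinib. The last group lay above every other library, and replicate 2 was the highest in each group. Lapatinib raised it 3.10-fold with NT siRNA (log2 1.63, SE 0.50, adjusted p = 0.0210) and 5.90-fold with FOXA1 siRNA (log2 2.56, SE 0.25, adjusted p = 6.46e-05). The first call was lost without siNT DMSO replicate 1 or 3 or siNT lapatinib replicate 2 (log2 1.25 to 1.38, adjusted p = 0.0615 to 0.0714). It passed with the replicate block (log2 1.71, adjusted p = 0.00027). In lapatinib, PDK4 was 2.99-fold higher with FOXA1 siRNA (log2 1.58, SE 0.26, adjusted p = 0.00178), and the interaction missed the threshold (0.93, SE 0.61, adjusted p = 0.423), though not with the block (0.97, adjusted p = 0.0439). PDK1, a hypoxia-induced kinase, was at 1394, 1327 and 1395 normalized counts in siNT DMSO and at 662.2, 586.5 and 635.0 in siNT lapatinib, a 2.15-fold fall (log2 -1.11, SE 0.07, adjusted p = 7.29e-06). It fell 1.74-fold with FOXA1 siRNA (log2 -0.80, SE 0.07, adjusted p = 3.14e-05).

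The remaining kinases and the target enzyme moved less. PDK3 fell with lapatinib by -0.87 (SE 0.08) with NT siRNA and -0.72 (SE 0.08) with FOXA1 siRNA. PDK2, the broadly expressed kinase, rose with NT siRNA (log2 0.78, SE 0.14, adjusted p = 0.00169), and with FOXA1 siRNA gave 0.24 (SE 0.11, adjusted p = 0.0795), which passed with the block (adjusted p = 0.0212). PDHA1, the catalytic subunit that these kinases phosphorylate, fell by -0.45 (SE 0.06, adjusted p = 0.00031) and -0.25 (SE 0.05, adjusted p = 0.00212), and in lapatinib was 0.32 higher with FOXA1 siRNA (SE 0.05, adjusted p = 0.00199). PDK1 and PDK3 were lower with FOXA1 siRNA in DMSO (log2 -0.16, SE 0.05, with an adjusted p just under the threshold, and -0.28, SE 0.07, adjusted p = 0.0141). The call of PDK1 did not hold with DESeq2, without a filter on low counts or with upper-quartile scaling (adjusted p = 0.053 to 0.0667), and held in 1 of 6 fits leaving out a library, that without siNT DMSO replicate 2. That of PDK3 was lost without siFOXA1 DMSO replicate 1 (adjusted p = 0.0577).

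Of the 3 pentose phosphate enzymes, PGD passed with lapatinib with NT siRNA and TKT with FOXA1 siRNA, and the other values missed the threshold. TKT and TALDO1 share the non-oxidative branch, which interconverts sugars to make ribose. TKT, transketolase, was at 26348, 26008 and 24219 normalized counts in siNT DMSO, 25597, 30199 and 24860 in siNT lapatinib, 34691, 32295 and 31066 in siFOXA1 DMSO, and 42615, 42778 and 38958 in siFOXA1 lapatinib. Every siFOXA1 library was above every siNT library. It rose with lapatinib with FOXA1 siRNA (log2 0.35, SE 0.05, adjusted p = 0.000753), and with NT siRNA gave 0.10 (SE 0.08, adjusted p = 0.303). FOXA1 siRNA raised TKT in DMSO (log2 0.37, SE 0.05, adjusted p = 0.000932) and in lapatinib (log2 0.62, SE 0.08, adjusted p = 0.000374). TALDO1, transaldolase, moved the other way with FOXA1 siRNA. Its normalized counts were 7239, 6615 and 6744 in siNT DMSO and 4789, 4699 and 4523 in siFOXA1 DMSO, a 1.46-fold fall (log2 -0.54, SE 0.05, adjusted p = 8.19e-05). In lapatinib the fall was -0.51 (SE 0.05, adjusted p = 0.000133). PGD, which makes NADPH in the oxidative branch, fell with lapatinib with NT siRNA (log2 -0.25, SE 0.08, adjusted p = 0.0281). This call held in 2 of 6 fits leaving out a library (those without siNT DMSO replicate 2 or siNT lapatinib replicate 3). It passed with the replicate block (adjusted p = 0.000646). With FOXA1 siRNA, PGD gave 0.01 (SE 0.06, adjusted p = 0.947).

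Over the whole set, FOXA1 siRNA in DMSO lowered 11 members and raised 6, beside 21.3% and 21.9% of all genes tested, so these shares were 31.4% and 17.1% of the members. The fit with the replicate block raised the second count to 11, beside 30.3% of all genes in that fit, and the first to 14, beside 30.2%. Higher were ARRDC4, ENO1, SLC16A1, SLC16A3, TKT and TXNIP, and the block added SLC2A3 (log2 0.55, adjusted p = 0.0110), LDHB (0.09, 0.0156), PDK2 (0.47, 0.000425), PDK4 (0.73, 0.0131) and PDHA1 (0.13, 0.00808). It also called TPI1 (-0.14, 0.00199), GAPDH (-0.12, 0.00356) and PFKFB4 lower. Without the block, ALDOC (-0.20, 0.0165) was lower and held in 2 of 6 fits that left out a library, those without replicate 2 of either group. In lapatinib, 13 of 34 members tested were higher and 7 lower with FOXA1 siRNA, beside 22.7% and 22.2% of all genes. The block, which called 30.6% of all genes higher and 31.1% lower, added PFKP (log2 0.22, adjusted p = 0.000612), ALDOC (0.17, 0.0124), PGK1 (0.13, 0.00327) and PDK1 (0.14, 0.0357) as higher, and SLC2A1, PFKFB3 (-0.27, 0.000234) and PGAM1 (-0.17, 0.00412) as lower. The median log2 fold change was -0.02 in DMSO and 0.10 in lapatinib, beside -0.01 in each over all genes. With an adjusted p below 0.01, FOXA1 siRNA raised 5 members and lowered 6 in DMSO, beside 14.4% and 13.4% of all genes, and raised 8 and lowered 4 in lapatinib, beside 15% and 14.5%. The 5 members higher in both were ARRDC4, ENO1, SLC16A1, SLC16A3 and TKT, the 3 lower in both were HK2, PFKL and TALDO1, and TXNIP passed with opposite signs. For these overlaps too, the share of all genes is not given here. In lapatinib, GPI (log2 0.29, SE 0.07, adjusted p = 0.0126) and ALDOA (0.19, SE 0.04, adjusted p = 0.0083) were also higher, and HK1 lower (-0.22, SE 0.05, adjusted p = 0.0115). Of these, the log2 fold change reached 1 for ARRDC4 and SLC16A1 in DMSO (both higher, against 4.06% of all genes higher and 2.77% lower), and in lapatinib for PDK4 and SLC16A1 (higher, against 4.5%) and PFKFB4 (lower, against 3.9%). Some calls in lapatinib were lost in fits leaving out 1 library, among them those of SLC2A3 and TXNIP given above. The others were those of FBP1 (log2 -0.32, adjusted p = 0.0279), LDHA (0.20, 0.0287), PGD (0.22, 0.0357) and ARRDC4. These held in 1, 3, 2 and 4 of 6 such fits. FBP1 held only without siFOXA1 lapatinib replicate 3, LDHA was lost without siFOXA1 lapatinib replicate 1 or 3 or siNT lapatinib replicate 1, PGD held only without siFOXA1 lapatinib replicate 2 or siNT lapatinib replicate 3, and ARRDC4 was lost without siFOXA1 lapatinib replicate 3 or siNT lapatinib replicate 1 (adjusted p of the lost calls 0.0501 to 0.113). The call of FBP1 was also lost with DESeq2 (adjusted p = 0.0654), in the model of all 12 samples (adjusted p = 0.0591) and with replicates 1 and 3 alone (adjusted p = 0.0702).

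**Figure D4:**
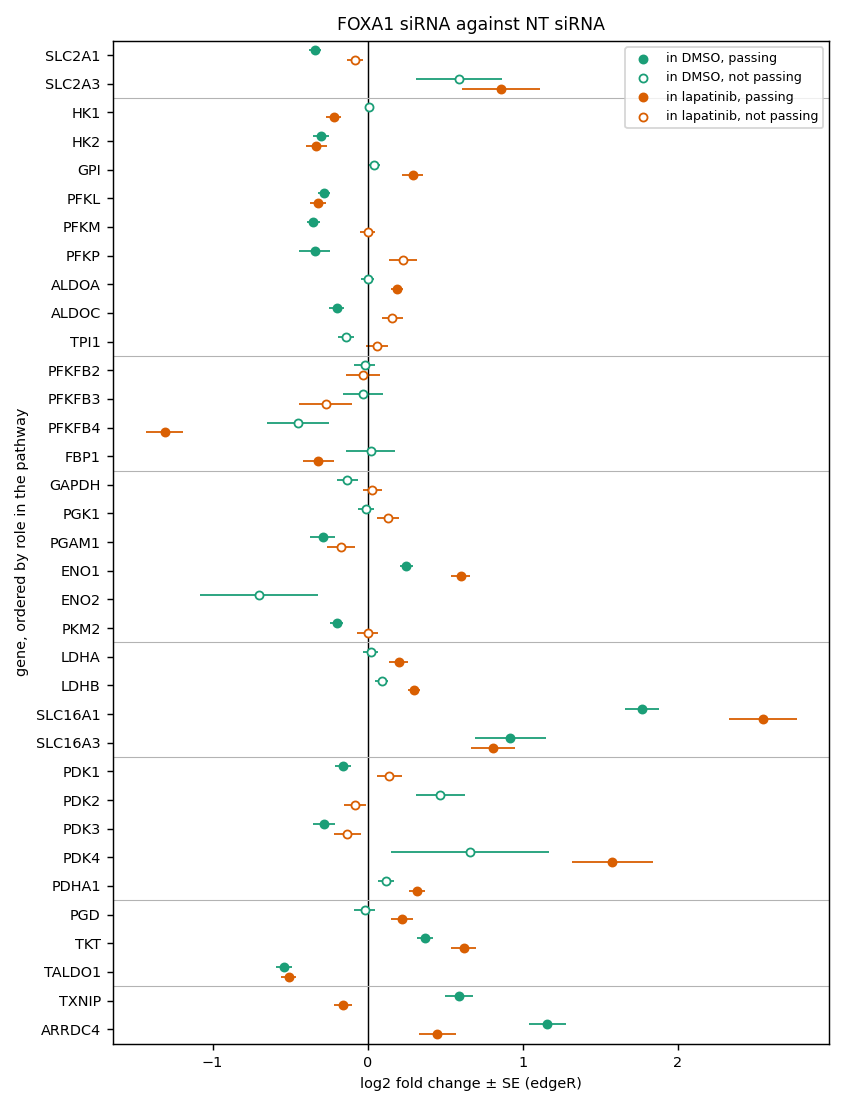
The horizontal axis is the log2 fold change of FOXA1 siRNA against NT siRNA (points) with its standard error (bars), for the 35 members in DMSO (green) and in lapatinib (orange, with 34 tested); filled points passed an adjusted p below 0.05. SLC16A1 lies farthest to the right in either medium, and PFKFB4 in lapatinib farthest to the left.

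The interaction asks whether the lapatinib response differed between the siRNA groups. It passed for 9 of the 35 members. In 7 it was positive (20% of the members, beside 3.99% of all genes tested) and in TXNIP and ARRDC4 negative (5.71%, beside 3.2%). With the replicate block these counts were 19 and 5, beside 11.1% and 9.22% of all genes. DESeq2 gave 9 and 4, beside 6.71% and 5.18% of the genes for which it gave an adjusted p, and replicates 1 and 3 alone gave 17 and 4, beside 10.3% and 7.87%. With an adjusted p below 0.01 the counts were 1 and 1, beside 1.11% and 1.06%. The block added 12 positive members (GPI, TPI1, GAPDH, PGK1, PKM2, LDHA, SLC16A1, PDK1, PDK4, PDHA1, PGD and TKT, from 0.16 to 0.97 on the log2 scale, adjusted p up to 0.0439) and 3 negative ones (HK1, PFKFB4 and PDK2, from -0.82 to -0.21, adjusted p up to 0.0236). The 7 were SLC2A1 (0.28, SE 0.06, adjusted p = 0.0220), PFKM (0.37, SE 0.06, adjusted p = 0.00473), PFKP (0.58, SE 0.15, adjusted p = 0.0383), ALDOA (0.22, SE 0.06, adjusted p = 0.0469), ALDOC (0.39, SE 0.08, adjusted p = 0.0179), ENO1 and LDHB (0.23, SE 0.05, adjusted p = 0.0223). Except for SLC2A1, whose rise was larger with FOXA1 siRNA, these are enzymes whose fall was smaller with FOXA1 siRNA. The coefficient was positive in 25 of the 35 members (71.4%), beside 51.1% of all genes tested, and its median was 0.21 beside 0.01. Most members fell with lapatinib, while all genes were split nearly evenly (29.2% lower and 30.5% higher with NT siRNA), so this baseline is unlike the members. Over all genes, 7.12% fell and 6.64% rose with a log2 size of at least 1 with NT siRNA, and 5.12% and 4.93% with FOXA1 siRNA. Whether the members went beyond a smaller response of all genes was not tested. PFKM, ENO1 and TXNIP passed in all 12 fits that each left out 1 library, ALDOC in 11, SLC2A1 and LDHB in 9, ARRDC4 in 5, ALDOA in 4 and PFKP in 3. All 9 passed with the replicate block (adjusted p up to 0.00457). ALDOA also missed the threshold with total-count scaling (adjusted p = 0.0749) and upper-quartile scaling (adjusted p = 0.0506).

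Because isoenzymes moved by different amounts, their shares of summed TPM shifted. HK2 made up 18.6% ± 0.650 (SD, n = 3) of hexokinase TPM in siNT DMSO and 23.7% ± 0.443 in siNT lapatinib, and 15.6% ± 0.629 and 22.4% ± 0.368 in the siFOXA1 groups. Among the phosphofructokinases with NT siRNA, PFKP went from 37.0% ± 1.23 to 25.1% ± 1.49, and in the siFOXA1 groups from 36.5% ± 2.79 to 31.0% ± 2.78, and in neither case did the ranges overlap. PFKFB3 went from 37.2% ± 5.22 to 57.9% ± 7.06 of the PFKFB transcripts in the siNT groups, and from 38.9% ± 2.09 to 57.9% ± 5.67 in the siFOXA1 groups. PDK4 went from 1.74% ± 1.31 to 7.51% ± 3.32 of the kinases in the siNT groups, and from 2.85% ± 0.953 to 19.5% ± 2.997 in the siFOXA1 groups. PDK1 went from 40.7% ± 2.70 to 25.8% ± 0.630 and from 37.8% ± 2.66 to 25.4% ± 2.39. LDHA stayed within 68.9% to 72.8% of the lactate dehydrogenases in every library. These shares are descriptions and carry no test.

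**Figure D5:**
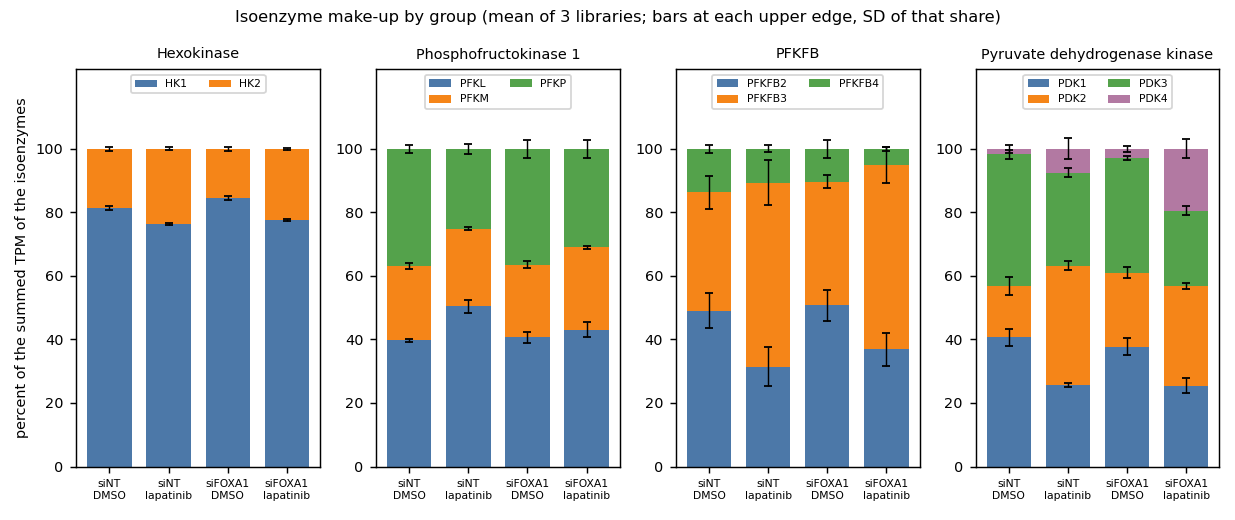
Each stacked bar gives the mean percent of the summed TPM of an enzyme family taken by each isoenzyme in 1 group (3 libraries), with the SD of each share drawn at its upper edge. HK2, PFKFB3, PDK2 and PDK4 take larger parts in the lapatinib groups, and PFKP, PFKFB2, PDK1 and PDK3 smaller ones.

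Other genes of the same pathways came from a list of 57, of which 38 were tested with NT siRNA. With lapatinib 9 rose and 14 fell with NT siRNA (23.7% and 36.8%, beside 30.5% and 29.2% of all genes tested), and 8 rose and 16 fell of 40 tested with FOXA1 siRNA (20% and 40%, beside 29% and 29.1%). Several less abundant sugar transporters had larger log2 fold changes than SLC2A1. SLC2A10 (GLUT10) rose by 2.53 (SE 0.16, adjusted p = 7.47e-06) and 2.43 (SE 0.17, adjusted p = 1.42e-05) on the log2 scale, from a mean of 5.47 to 30.6 TPM with NT siRNA. SLC2A12 rose by 1.48 (SE 0.13) with NT siRNA and 0.69 (SE 0.13) with FOXA1 siRNA, with an interaction of -0.77 (SE 0.20, adjusted p = 0.0365), and SLC2A13, a myo-inositol carrier, by 1.41 and 0.81. SLC2A6 fell by -2.35 (SE 0.17) and -2.84 (SE 0.24), from 10.7 to 2.10 TPM with NT siRNA. SLC2A4 (GLUT4), the insulin-responsive carrier, was higher with FOXA1 siRNA in DMSO (log2 1.70, SE 0.41, adjusted p = 0.0116) and in lapatinib (log2 2.02, SE 0.27, adjusted p = 0.000548).

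Among enzymes outside the 35, LDHD, the mitochondrial dehydrogenase of D-lactate, rose with lapatinib by 1.74 (SE 0.24) and 1.03 (SE 0.11). C12orf5 (TIGAR), a phosphatase that lowers glycolytic flux, fell by -1.08 (SE 0.12) and -1.42 (SE 0.10), and PGAM5, a mitochondrial phosphatase despite its mutase-like symbol, by -1.04 and -0.85. Pyruvate carboxylase, PC, fell by -0.97 (SE 0.08) with NT siRNA and -0.25 (SE 0.08) with FOXA1 siRNA, a difference that passed (interaction 0.73, SE 0.12, adjusted p = 0.00381). FOXA1 siRNA raised PC by 0.79 in DMSO (adjusted p = 0.000196) and by more in lapatinib (adjusted p = 9.07e-06). SLC16A4, an SLC16A family member, rose with lapatinib by 1.75 (SE 0.08) and 1.14 (SE 0.06), again with a passing interaction (-0.59, SE 0.09, adjusted p = 0.0024). PDP1, a phosphatase that switches pyruvate dehydrogenase on, had an interaction of -0.75 (SE 0.19, adjusted p = 0.0335). PFKFB1 and SLC16A7 had passing log2 fold changes past 1 in 1 comparison each, PFKFB1 lower with FOXA1 siRNA in DMSO (-1.84, adjusted p = 0.0231) and SLC16A7 lower with lapatinib with FOXA1 siRNA (-1.52, adjusted p = 0.007), at means under 1 TPM.

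Of the arrestin paralogs and glucose-sensing factors, 3 of 6 tested rose and 1 fell with lapatinib with NT siRNA, and 4 of 7 rose with FOXA1 siRNA, beside 30.5% of all genes higher and 29.2% lower in the first case and 29% higher in the second. ARRDC5 passed with a log2 fold change above 1 (1.39, adjusted p = 0.0331, with FOXA1 siRNA) at means under 1 TPM. Among 23 genes of the hypoxia-inducible factors and their targets outside glycolysis, 8 rose and 8 fell with NT siRNA (34.8% each way, near the 30.5% and 29.2% of all genes), with a median of 0.01. EGLN3, an oxygen-sensing hydroxylase, fell by -1.66 (SE 0.10) and -1.70 (SE 0.18), and MXI1, a MYC antagonist, rose by 1.56 (SE 0.11) and 1.57 (SE 0.08). The stress genes NDRG1 and DDIT4 moved oppositely with FOXA1 siRNA, NDRG1 by -1.21 and -1.32 and DDIT4 by 1.25 and 1.13. Among 12 genes often used as references, 5 rose and 5 fell with lapatinib with NT siRNA (41.7% each way, beside 30.5% and 29.2% of all genes). ACTB, cytoskeletal actin, fell by -1.01 (SE 0.08, adjusted p = 2.38e-05) with NT siRNA and by -0.63 (SE 0.11, adjusted p = 0.00129) with FOXA1 siRNA, as GAPDH did by less.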

How the data were processed

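Libraries from SKBR-3 cells in 4 groups of 3 were compared, grouped by the submitters' labels. Per the labels, polyadenylated RNA was prepared with a stranded kit named in the extraction protocol, while another label names a TruSeq kit; the strand setting of the counting is not given in the sources used here. The labels give 48 h of siRNA before drug, where the methods give a shorter time. The authors aligned reads with STAR to hg38, and the submitters' processing notes name RSEM, R 3.2.2 and DESeq2 1.12.3. The deposited values are, per gene, the expected count (an estimated count that RSEM made by sharing reads between genes), TPM and FPKM, both per length and depth, and a normalized signal made by the authors. FPKM and the signal were not used. TPM of the listed genes sum to 896833 to 939340.

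Expected counts were rounded and fitted with edgeR 4.0.16 (quasi-likelihood, TMM scaling) in R 4.3.3, keeping genes that reached 10 counts in 1 or more samples of the fit. Each comparison used its own 6 samples, and the interaction all 12. P-values were adjusted by Benjamini-Hochberg over all genes tested, with a threshold of 0.05, and standard errors came from the F statistic. Normalized counts are counts over the TMM-scaled library size, times the mean of these sizes. Scripts were tested on simulated data. The precision of low genes is limited by counting and by 3 replicates a group. Replicate pairs differed by more than sampling noise (chi-square per degree of freedom 3.75 to 18.5). The labels do not say whether replicates are separate cultures, so p-values measure the spread between these samples, which may be technical. Replicate numbers in the titles paired the samples: deviations from group means correlated between same-numbered samples in all 18 pairs (mean 0.419, range 0.269 to 0.656, over 12170 genes). Between different numbers the mean was -0.196. Deviations from a group mean cancel within the group, so this negative value follows largely from the positive one and is no separate evidence of pairing. Other normalizations, filters, DESeq2 1.42.0, the replicate block, a model of all samples and omission of each library were tried, and a fit without replicate 2 was added after seeing the data.

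All 35 members are accounted for. Genes of the other lists are named where they passed a comparison with a log2 fold change that reached 1 in either direction, or passed the interaction, and FOXA1 as a check of the knockdown. Members and lists were chosen with earlier results of these data known. Promoter sequences are from RefSeq (GRCh38.p14).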

Additional observations from a re-analysis of the deposited data

Results flagged for a closer look

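For 9 members the response to lapatinib differed between the siRNA groups by the interaction test. On the log2 scale (FOXA1 siRNA minus NT siRNA) the difference was 0.28 for SLC2A1, 0.37 for PFKM, 0.58 for PFKP, 0.22 for ALDOA, 0.39 for ALDOC, 0.37 for ENO1 and 0.23 for LDHB. It was -0.73 for TXNIP and -0.69 for ARRDC4. The interaction of PFKP held in 3, of ALDOA in 4 and of ARRDC4 in 5 of the 12 fits that each left out 1 library. These fits did not use the replicate block. With the block on all 12 samples, PFKP (adjusted p = 0.000102), ALDOA (0.00404) and ARRDC4 (0.00161) passed. PFKP held without siFOXA1 DMSO replicate 2, siFOXA1 lapatinib replicate 3 or siNT lapatinib replicate 2, and ALDOA without replicate 2 of siFOXA1 DMSO, siNT DMSO or siNT lapatinib or without siFOXA1 lapatinib replicate 1. ARRDC4 was lost without siFOXA1 DMSO replicate 2 or 3, siFOXA1 lapatinib replicate 1 or 2, siNT DMSO replicate 1, or siNT lapatinib replicate 1 or 3. SLC2A1 was lost without siFOXA1 DMSO replicate 1, siNT DMSO replicate 3 or siNT lapatinib replicate 1, LDHB without siFOXA1 DMSO replicate 3, siFOXA1 lapatinib replicate 1 or siNT DMSO replicate 1, and ALDOC without siFOXA1 DMSO replicate 3. PFKM, ENO1 and TXNIP passed in all 12.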

How the results depend on the processing

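No member reversed direction while passing under any setting tried, and no scaling moved the median of all genes by more than 0.1 on the log2 scale. With an adjusted p below 0.01, 5 members were higher with lapatinib with NT siRNA (beside 22.8% of all genes), 6 lower with FOXA1 siRNA in DMSO (beside 13.4%), 8 higher and 4 lower with FOXA1 siRNA in lapatinib (beside 15% and 14.5%), and the interaction passed for 1 positive and 1 negative (beside 1.11% and 1.06%). When the log2 fold change also had to reach 1 in either direction, 2 rose and 6 fell with lapatinib with NT siRNA, 2 rose and 4 fell with FOXA1 siRNA, 2 were higher and 0 lower with FOXA1 siRNA in DMSO, and 2 higher and 1 lower in lapatinib. DESeq2 gave 4 negative interactions, beside 5.18% of the genes it gave an adjusted p. The replicate block gave 11 members higher with FOXA1 siRNA in DMSO, and 19 positive and 5 negative interactions, beside 11.1% and 9.22% of all genes for the interactions. Beside the calls named with it above it changed no other call. It lost none, so every call of the main fits that was lost without 1 library passed with the block on all samples of its comparison. Replicates 1 and 3 alone gave 17 positive and 4 negative interactions, beside 10.3% and 7.87% of all genes. With shares computed from normalized counts per length, LDHA and LDHB were at 69.7% and 30.3% in siFOXA1 DMSO.

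Leaving out 1 library at a time gave 5 to 8 members higher and 23 to 24 lower with lapatinib with NT siRNA, 6 to 8 and 21 to 23 with FOXA1 siRNA, 5 to 8 and 7 to 12 for FOXA1 siRNA in DMSO, 10 to 12 and 5 to 6 in lapatinib, and 3 to 8 positive and 1 to 3 negative interactions. The lowest counts were 5 higher with lapatinib without siNT DMSO replicate 1, 7 lower with FOXA1 siRNA in DMSO without replicate 1 of siNT DMSO or siFOXA1 DMSO, and 3 positive interactions without siFOXA1 DMSO replicate 3. Positive interactions numbered 4 without siFOXA1 DMSO replicate 1, siNT DMSO replicate 1 or 3, or siNT lapatinib replicate 1. The negative ones numbered 1 without siFOXA1 DMSO replicate 2 or 3, siFOXA1 lapatinib replicate 1 or 2, siNT DMSO replicate 1, or siNT lapatinib replicate 1 or 3. The cause was not tested.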

Other observations

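Of the genes named from the hypoxia list, some had low counts. ANGPTL4, which inhibits lipoprotein lipase, fell with lapatinib by -2.46 (SE 0.68, adjusted p = 0.0130) with NT siRNA and -3.08 (SE 0.51, adjusted p = 0.00102) with FOXA1 siRNA, from a mean of 2.68 to 0.46 TPM in the first case. CA9, a carbonic anhydrase, was 2.37 higher with FOXA1 siRNA in DMSO (SE 0.35, adjusted p = 0.00113) and 4.08 higher in lapatinib (SE 0.59, adjusted p = 0.000867), at no more than a mean of 2.28 TPM. STC2 (-3.14 with lapatinib with NT siRNA, adjusted p = 0.0123) and ANKRD37 (-1.12 with FOXA1 siRNA in DMSO, adjusted p = 0.0304) were also under a mean of 2 TPM. The interaction passed for P4HA1, a collagen hydroxylase (0.38, SE 0.06, adjusted p = 0.00334), and ERO1L, an oxidase of protein folding (0.31, SE 0.09, adjusted p = 0.0454), and was negative for EPAS1, a hypoxia-inducible factor (-0.43, SE 0.07, adjusted p = 0.00458), and BNIP3L, a mitophagy receptor (-0.60, SE 0.15, adjusted p = 0.0338). Of the reference genes, it was positive for TFRC (0.23, SE 0.06, adjusted p = 0.0327) and SDHA (0.32, SE 0.08, adjusted p = 0.0313).

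Replicate 2 stood apart for many members. It was the highest of 3 in all 4 groups for PFKP, PFKFB3, SLC16A3 and PDK4, and the lowest in all 4 for 12 members, GPI, TPI1, PFKFB2, GAPDH, PGK1, PGAM1, ENO1, PKM2, LDHA, LDHB, PDHA1 and PGD. Together these were 16 of the 35 members (45.7%), beside 26.6% of all genes tested.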
